A study of Mus musculus with 6 samples.

Results

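The genes described here are the translation initiation factors, the translation elongation factors with the enzymes that modify them, and the aminoacyl-tRNA synthetases. They were chosen by gene symbol: names beginning with Eif and a digit from 1 to 6, names beginning with Eef1 or Eef2, and synthetase names made of 1 letter and "ars", with or without a final digit. Eprs, Farsa and Farsb were taken in as well. The kinases whose names begin with Eif2ak were left out. The rule found 96 of the 10995 genes in the table: 49 initiation factors and their partners, 10 elongation factors and their modifiers, 20 cytosolic synthetases and 17 mitochondrial synthetases.

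The libraries were made from mammary tumor cells of FVB/NJ mice, all of which carry the MMTV-PyVT transgene, in which the mouse mammary tumor virus promoter drives the polyoma middle T oncogene, chiefly in mammary epithelium. Of the 6 libraries, 3 came from mice wild type for Nr4a1, which encodes an orphan nuclear receptor, and 3 from age-matched mice labelled Nr4a1-/-. The transgene is in all 6, so no library is from normal mammary tissue, and the labels give no age, knockout allele or cell purification. The comparison asks which mRNAs differ between tumor cells of mice with the 2 Nr4a1 genotypes given in the labels.

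Initiation begins when eIF2 brings the initiator tRNA to the small ribosomal subunit, aided by eIF1, eIF1A, eIF3 and eIF5, while eIF4E, eIF4G and eIF4A bring the capped mRNA. The 4E-binding proteins hold eIF4E until mTOR phosphorylates them, and phosphorylation of eIF2 blocks eIF2B, its exchange factor, which lowers initiation on most mRNAs while favouring Atf4. Elongation factors eEF1A and eEF2 deliver the charged tRNA and move the ribosome along. Most synthetases charge tRNAs with 1 amino acid, in the cytosol, in mitochondria or in both. Much of the control of this machinery is by phosphorylation of proteins, which mRNA counts do not measure.

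Library totals ran from 19569173 to 24188875 counts, of which the 96 genes took 2.23 to 2.58%. Values below are CPM, counts scaled to a common library size by TMM, and levels compared between genes are CPM per kilobase of annotated exon. Nr4a1 itself was not lower in the libraries labelled Nr4a1-/-: it stood at 34.5, 18.6 and 16.8 CPM in wild type and at 25.1, 35.5 and 37.6 CPM in the libraries labelled knockout (exact two-sided permutation test, p = 0.2, with 0.1 the smallest p that 3 against 3 allows). The table does not show which part of the gene the reads came from, so this does not check the deletion, and the groups are called here by their labels. Wild-type replicate 1 stood apart, with the highest value of the 6 libraries for 3541 genes and the lowest for 3477. Among the 96 genes it was highest for 32 and lowest for 23.

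No gene of the translation machinery passed the test between the labels. edgeR's quasi-likelihood test called 0 of the 96 at an adjusted p under 0.05, as it did 0 of all 10995 genes (0%), and the smallest adjusted p among the 96 was 0.574. At an unadjusted p under 0.05 it listed 1 of the 96, Mars, which was lower, against 7.88% of all genes (3.7% higher and 4.17% lower). DESeq2 called 0 of the 96, against 0.938% of the genes it tested, and limma-voom called 0 of the 96 and 0 of all genes. The knockout-labelled and wild-type libraries did not overlap for 17 of the 96 (17.7%), against 17.4% of all genes; 9 were higher in all 3 knockout-labelled libraries, against a background of 8.39%, and 8 lower, against 9.05%. These shares are close to the background.

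Differences were small for most of these genes. The log2 fold changes (knockout label over wild type) ran from -0.64 to 0.38, with 41 above 0 and 55 below. Their median was -0.02, against -0.0024 over all genes, and with scaling to library size alone it was 0.0012. A log2 fold change beyond 0.2 in either direction was fitted for 13 of the 96 (13.5%), against 33% of all genes, and one beyond 0.5 for 4 (4.17%), against 10.6%. The median SD of log2 CPM over the 6 libraries was 0.11, against 0.16 over all genes, and neither comparison was matched for level. By role, the median log2 fold change was -0.02 for initiation factors, -0.07 for elongation factors, 0.0035 for cytosolic synthetases and -0.03 for mitochondrial synthetases. The initiation median was 0.0034 with scaling to library size alone, and the elongation median was 0.02 without wild-type replicate 1.

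**Figure D1:**
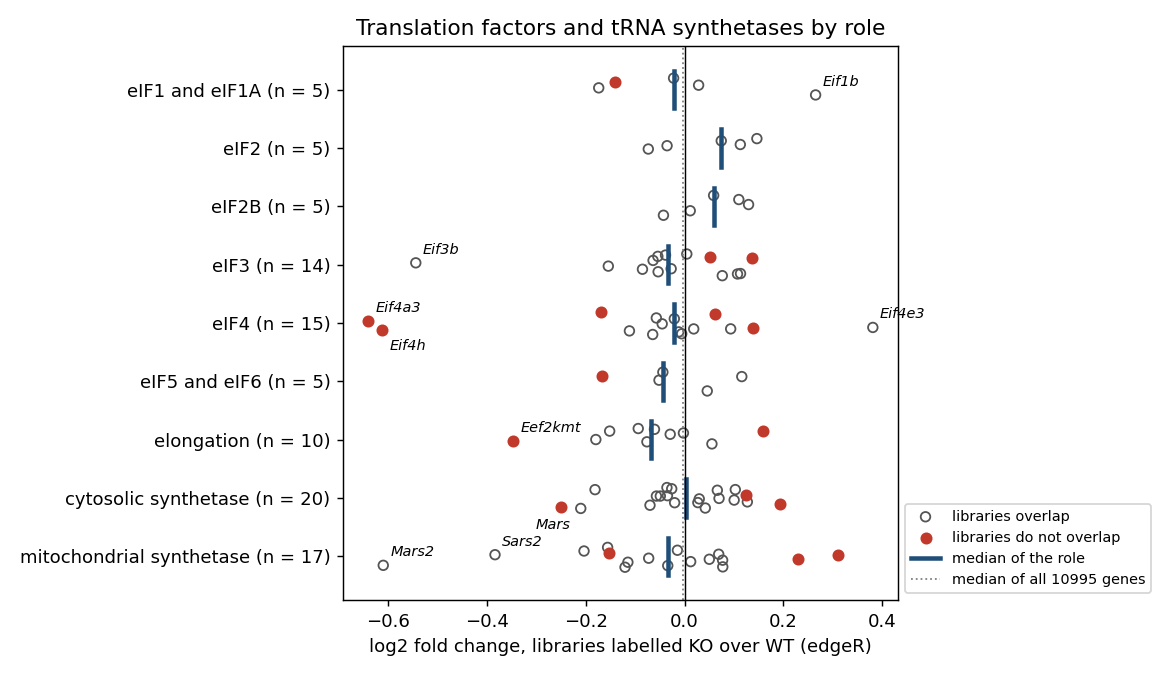
Log2 fold change of each of the 96 genes (knockout label over wild type, edgeR) on the horizontal axis, grouped by role on the vertical axis, with 1 point per gene. Points gather around 0 in every role, and Eif4a3, Eif4h, Mars2 and Eif3b lie lowest, between -0.64 and -0.54.

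The genes of eIF2 and eIF2B, on the initiator-tRNA side of initiation, varied little. Eif2s1, which encodes the alpha subunit of eIF2 that stress kinases phosphorylate, stood at 89.8, 109 and 104 CPM in wild type and at 110.0, 117 and 109 in the knockout-labelled libraries (log2 fold change 0.15, SE 0.09, adjusted p = 0.587 by edgeR). The groups met at 109 CPM, and the fold change was 0.07 without wild-type replicate 1. Of the 5 genes grouped with eIF2, 3 had positive fold changes, and of the 5 eIF2B subunits 4 did, from -0.04 to 0.13, with overlapping groups for each. Eif1, which guides the choice of start codon, differed by -0.17 with overlapping groups. Eif1b, grouped with Eif1, had a log2 fold change of 0.27 (SE 0.14, adjusted p = 0.574 by edgeR), also with overlapping groups. Eif1ad, related to eIF1A, did not overlap, with 31.9, 30.2 and 28.1 CPM in wild type and 26.5, 27.9 and 27.5 in the knockout-labelled libraries (adjusted p = 0.584 by edgeR).

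The eIF3 complex, the scaffold of the initiation complex, has 14 genes in the table, 6 with positive and 8 with negative fold changes. Eif3e was measured at 144, 136 and 135 CPM in wild type and at 158, 144 and 154 CPM in the knockout-labelled libraries, a log2 fold change of 0.14 (SE 0.07, adjusted p = 0.574 by edgeR). The highest wild-type library and the lowest knockout-labelled one nearly met. Eif3m was the other gene of the complex without overlap, at 84.7 to 89.8 CPM against 89.8 to 92.8. All genes of the complex other than Eif3b lay between -0.15 and 0.14, and Eif3b, at -0.54, is described below with its neighbours.

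Among the cap-binding factors, Eif4e, the cap-binding protein, stood at 70.4, 80.6 and 80.1 CPM in wild type and at 81.8, 89.8 and 82.8 CPM in the knockout-labelled libraries. The groups did not overlap, and the difference did not pass the test (log2 fold change 0.14, SE 0.08, adjusted p = 0.583 by edgeR), and the fold change was 0.08 without wild-type replicate 1, the lowest library. Eif4ebp2, which encodes a 4E-binding protein, stood at 196, 178 and 196 CPM against 176, 162 and 169 CPM (log2 fold change -0.17, SE 0.07, adjusted p = 0.574 by edgeR). Those groups did not overlap either, and Eif4e and Eif4ebp2 lay in opposite directions. Eif4ebp1, the better known 4E-binding protein, overlapped at 76.7, 58.8 and 58.6 CPM against 57.4, 68.3 and 54.1. Eif4g1, the scaffold of the cap complex, stood at 772 to 919.5 CPM across all 6 libraries with a log2 fold change of -0.06 (SE 0.10).

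The eIF4A helicases unwind the 5′ end of the mRNA. Eif4a1 was at 559 to 674 CPM (log2 fold change -0.01 with TMM and 0.01 with scaling to library size alone), and 37.8% of its transcript's 31-base words occur in other annotated transcripts, so its reads could be split between copies. Eif4a-ps4, a pseudogene that the symbol rule took in, shares 97.4% and its counts cannot be assigned to that locus with certainty. Eif4a2 did not overlap by a narrow margin, at 443, 443 and 449 CPM against 451, 451 and 493. Eif4e3, an eIF4E relative named after its values were seen, had the highest fold change of the 96 (0.38, SE 0.21), with 1 knockout-labelled library, at 9.84 CPM, inside the wild-type range of 9.499 to 10.96.

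Of the late factors, Eif5a, which carries the hypusine residue and eases peptide bond formation, was the most abundant initiation-class mRNA per length at 262 ± 14.1 CPM per kilobase (SD, n = 6). Its relative Eif5a2 was the least abundant at 1.54 ± 0.224, a gap far beyond the spread among libraries, and neither gene separated the labels (log2 fold changes -0.05, SE 0.09, and 0.05, SE 0.20). Eif6, which keeps the large ribosomal subunit from joining too early, stood at 159, 162 and 162 CPM in wild type and at 159, 133 and 137 CPM in the knockout-labelled libraries (log2 fold change -0.17, SE 0.08, adjusted p = 0.574 by edgeR). Knockout replicate 1 lay just under the wild-type range and the other two lay well below it.

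**Figure D2:**
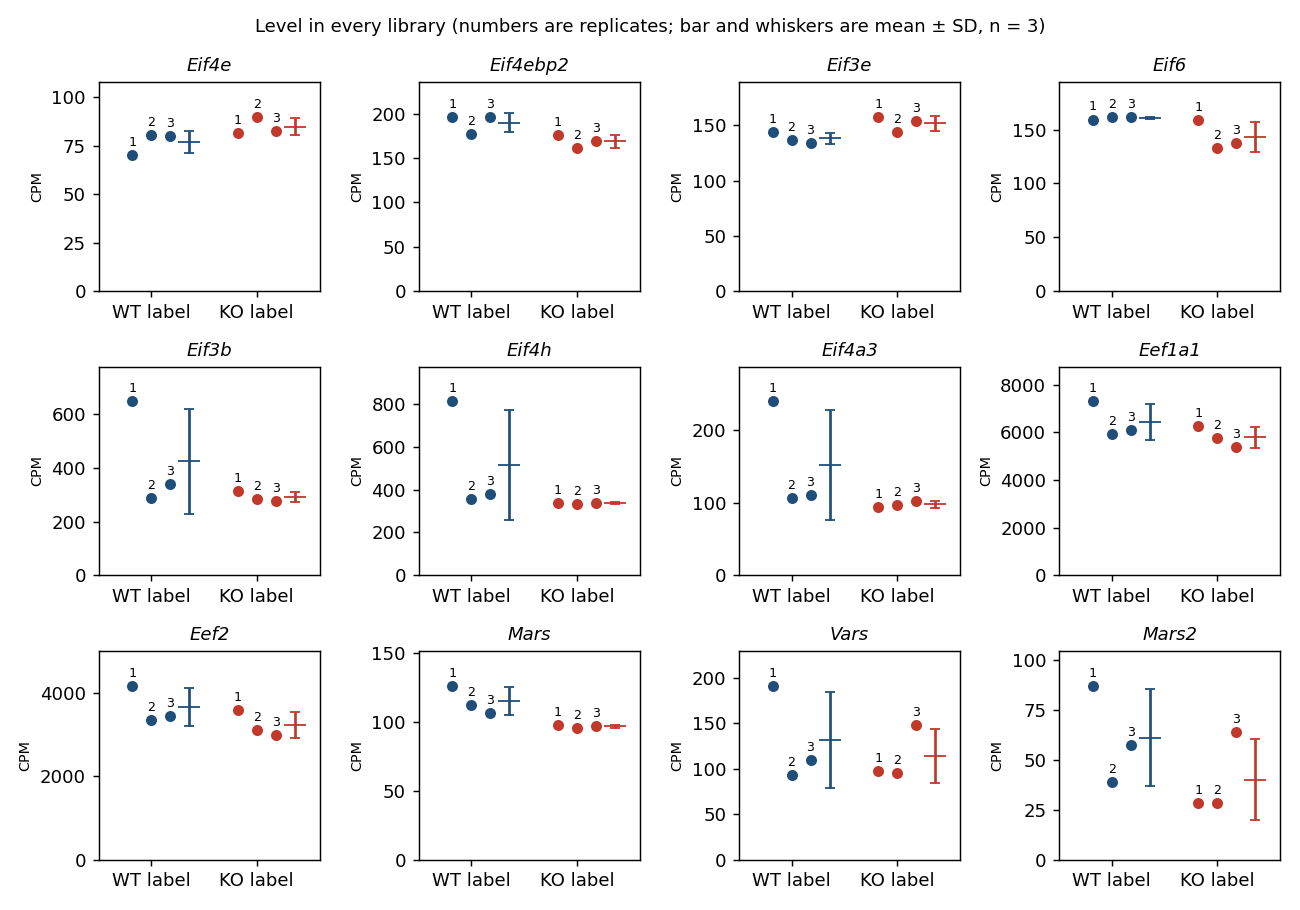
CPM (vertical axes, each from 0) in each library for selected genes, by label on the horizontal axis; digits are replicate numbers, and bars and whiskers are mean ± SD, n = 3. Mars lies lower in all 3 knockout-labelled libraries, at 95.5 to 97.6 CPM, and wild-type replicate 1 is the outlying point for Eif3b, Eif4h and Eif4a3.

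Per length, Eef1a1 and Eef2 were the most abundant of the 96 genes. Eef1a1, which delivers charged tRNAs, reached 2457 ± 262 CPM per kilobase (SD, n = 6), and Eef2, the translocase, 1038 ± 126. Eef1a1 stood at 7305, 5922 and 6113 CPM in wild type and at 6258, 5769 and 5383 CPM in the knockout-labelled libraries (log2 fold change -0.15, SE 0.16, adjusted p = 0.705 by edgeR). Wild-type replicate 1 was the highest, and 74.8% of the transcript's 31-base words are shared with other transcripts. Eef2 was at 4175, 3361 and 3453 CPM against 3592, 3112 and 2998 (log2 fold change -0.18, SE 0.15, adjusted p = 0.652 by edgeR), also highest in wild-type replicate 1. Without that library the fold changes were -0.05 for Eef1a1 and -0.08 for Eef2.

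Eef2k, the kinase that inhibits eEF2, was the lowest of this class per length at 3.34 ± 0.492 CPM per kilobase (SD, n = 6). It stood at 31.7, 22.9 and 21.3 CPM in wild type and 24.96, 23.0 and 24.8 in the knockout-labelled libraries. Eef2kmt, which methylates eEF2, did not overlap: 26.8, 16.5 and 16.7 CPM against 15.8, 15.4 and 15.9 (log2 fold change -0.35, SE 0.21, adjusted p = 0.584 by edgeR). The fold change was -0.08 without wild-type replicate 1, and 28.9% of its words are shared. Eef1akmt1, a lysine methyltransferase of eEF1A, stood higher in each knockout-labelled library, at 11.9 to 13.7 CPM against 11.01 to 11.7 (adjusted p = 0.611 by edgeR).

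Mars, the cytosolic methionyl-tRNA synthetase, had the smallest p of the 96. It stood at 126, 112 and 107 CPM in wild type (115 ± 10.04, SD, n = 3) and at 97.6, 95.5 and 97.1 CPM in the knockout-labelled libraries (96.7 ± 1.11, SD, n = 3). The log2 fold change was -0.25 (SE 0.08, unadjusted p = 0.019, adjusted p = 0.574 by edgeR, and adjusted p = 0.294 by DESeq2), so the difference did not pass the test over all genes. The gene lies on chromosome 10, at 127296221 to 127311786 of GRCm38 on the minus strand, and overlaps Ddit3, a stress-response transcription factor gene, on the opposite strand by 68 bases. Ddit3 itself was at 29.1, 27.6 and 27.1 CPM in wild type and 27.2, 37.4 and 19.1 in the knockout-labelled libraries, with no common direction with Mars.

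Cytosolic synthetases split evenly, with 10 fold changes above 0 and 10 below. Hars, for histidine, did not overlap at 61.5, 61.7 and 60.9 CPM against 65.2, 70.4 and 65.0 (log2 fold change 0.13, SE 0.06, adjusted p = 0.574 by edgeR). Farsb, a subunit of the phenylalanine enzyme, did not overlap either, at 48.4, 57.8 and 59.6 CPM against 63.3, 63.1 and 63.2 (log2 fold change 0.19, SE 0.09, adjusted p = 0.574 by edgeR, and 0.11 without wild-type replicate 1, its lowest library). Farsa, its partner subunit, overlapped, at 62.0 to 67.8 CPM against 64.4 to 71.6. Eprs, the joined glutamate and proline enzyme, was the lowest per length at 11.6 ± 0.572 CPM per kilobase (SD, n = 6) and Nars, for asparagine, the highest at 80.1 ± 6.94. The Eprs figure divides by 18102 bases of annotated exon, the longest of the class, and its rank depends on that length. In CPM, Eprs was above Farsb in every library.

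Eprs stood at 197 to 222 CPM in all libraries (log2 fold change 0.03, SE 0.08), and Nars at 308 to 389.8 (log2 fold change -0.02 with TMM and 0.0037 with scaling to library size alone). Wars, an interferon-inducible synthetase, was at 73.8 to 76.1 CPM in wild type and at 76.9, 80.6 and 61.9 CPM in the knockout-labelled libraries (log2 fold change -0.03, SE 0.11). Gars was at 144, 132 and 132 CPM against 147, 157 and 112 (0.03, SE 0.14), and Lars at 124, 105 and 107 CPM against 120.4, 126 and 114 (0.10, SE 0.09). Among the 9 genes assigned to the multi-synthetase complex, which are 8 synthetases and its accessory protein Eef1e1, 5 fold changes were above 0, with a median of 0.03.

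Several cytosolic synthetases are known targets of ATF4, which binds elements related to the sequence TGATGNAA. RefSeq promoter records on GRCm38.p6, spanning 250 bases before to 50 after each start, were matched by symbol for 71 of the 96 genes, of which 7 hold the element on either strand. It occurs in 3.97% of the 32851 promoters in that table, which belong to 27025 genes of which 4.51% have it, and in 5 of the 12 cytosolic synthetases that were matched. Those 5 are shown because their levels can be set beside those of Atf4 and Ddit3; capitals mark the element, and flanks end by 25 bases after the start. A match says only that these letters are present.
Yars (chr4:129189886-129189927, plus strand): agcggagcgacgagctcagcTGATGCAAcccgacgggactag
Gars (chr6:55037951-55037998, plus strand): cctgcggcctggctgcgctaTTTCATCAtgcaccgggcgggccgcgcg
Aars (chr8:111033710-111033757, plus strand): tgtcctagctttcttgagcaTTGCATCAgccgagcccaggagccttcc
Iars (chr13:49682117-49682154, plus strand): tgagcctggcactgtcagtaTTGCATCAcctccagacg
Tars (chr15:11399646-11399693, minus strand): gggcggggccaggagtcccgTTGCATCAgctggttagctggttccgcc

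Aars has a second copy nearer its start. The 5 genes did not separate the labels, with a median log2 fold change of -0.04, and none was without overlap. Aars, for alanine, was at 233, 225 and 233 CPM in wild type and at 241, 237 and 190.1 in the knockout-labelled libraries. Its exons overlap other genes, Exosc6 on the same strand among them, by 1403 bases, and 22.7% of its words are shared. Iars, for isoleucine, was at 144, 132 and 146 CPM against 132, 149.7 and 129. Yars, for tyrosine, was at 96.4, 71.5 and 69.9 CPM against 76.5, 75.6 and 74.4, and Tars, for threonine, at 97.0, 103 and 104 CPM against 102, 118 and 106. In Aars, Gars and Iars the lowest of the 6 libraries was knockout replicate 3.

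Knockout replicates 2 and 3 differed from each other across the cytosolic synthetases. Of the 20, 16 were higher in replicate 2 than in replicate 3, with a median log2 ratio of 0.13, against 50.1% of all genes with a median of 0.0006. Ddit3 and Ppp1r15a, genes of the integrated stress response, were also at their highest in replicate 2 (37.4 and 51.1 CPM) and at their lowest in replicate 3 (19.1 and 32.1 CPM). Atf4 did not follow that order, at 217 CPM in replicate 2 and 249 in replicate 3. These are 2 libraries with 1 label, so no test was made, and other gene groups differed between them too. In replicates 2 and 3 in turn, the summed levels were 307 and 121 CPM for interferon-response genes, 5751 and 3241 for fibroblast markers, 2021 and 917 for pericyte and smooth muscle markers, 1018 and 728 for macrophage markers and 78.1 and 26.6 for the adipocyte marker. Epithelial markers summed to 4073 and 4496 CPM and proliferation genes to 151 and 189. The part of these in the synthetase levels was not tested.

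**Figure D3:**
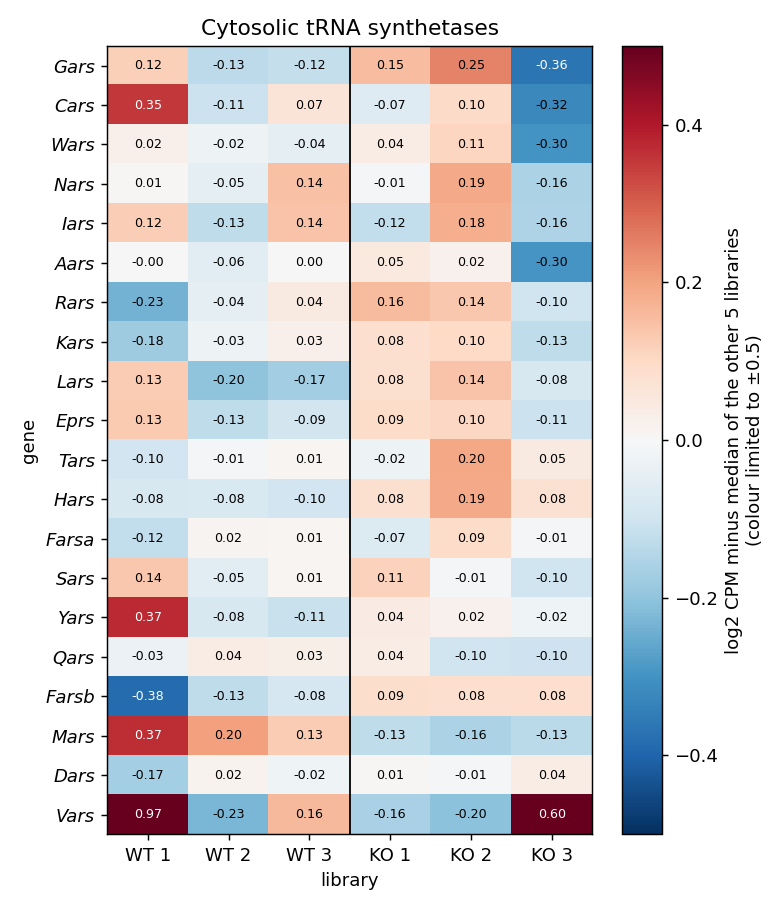
Log2 CPM of each cytosolic synthetase (rows) in each library (columns) minus the median of the other 5 libraries, with colour limited to ±0.5. Knockout replicate 3 is mostly below the other libraries (median -0.10) and knockout replicate 2 mostly above (median 0.10).

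Mean levels per length over the 6 libraries were lower for the mitochondrial synthetases than for the cytosolic ones. They ran from 1.40 ± 0.121 CPM per kilobase (Nars2) to 10.9 ± 0.559 (Iars2, SD, n = 6), against a lowest cytosolic mean of 11.6. That cytosolic mean is for Eprs, whose annotated exons are the longest among the cytosolic synthetases. The order did not hold in every library. In wild-type replicate 2, Iars2 was at 11.8 and Eprs at 10.9 CPM per kilobase, and in knockout replicate 3 both were at 11.1. Neither end of the mitochondrial class separated the labels, with a log2 fold change of 0.07 for Nars2 (SE 0.14) and of 0.01 for Iars2 (SE 0.08). The exons of Iars2 overlap genes on the opposite strand, Rab3gap2 among them, by 2148 bases, and 36.8% of its words are shared. Rars2, for arginine, stood at 16.6, 17.3 and 16.5 CPM in wild type against 20.2, 17.9 and 21.0 (log2 fold change 0.23, SE 0.10, adjusted p = 0.574 by edgeR). It was higher in each knockout-labelled library, while Aars2, for alanine, was lower in each, at 19.7 to 22.4 CPM against 23.1 to 24.1.

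Sars2, for serine, was at 30.1, 21.0 and 23.1 CPM in wild type and 17.4, 17.7 and 21.8 in the knockout-labelled libraries (log2 fold change -0.38, SE 0.17, adjusted p = 0.574 by edgeR), with knockout replicate 3 inside the wild-type range, and the fold change was -0.22 without wild-type replicate 1. Mars2, for methionine, had a larger difference with a larger spread, at 87.1, 38.8 and 57.4 CPM against 28.2, 28.3 and 63.7 (log2 fold change -0.61, SE 0.44). The fold change was -0.27 without wild-type replicate 1, whereas leaving out knockout replicate 3 gave -1.11. Mars2 is named with the 4 genes of the next paragraphs after its values were seen.

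The largest negative differences rested on wild-type replicate 1. Eif3b stood at 648, 288 and 339 CPM in wild type and at 314, 283 and 277 CPM in the knockout-labelled libraries (log2 fold change -0.54, SE 0.31, adjusted p = 0.581 by edgeR). Eif4h, a cofactor of eIF4A, stood at 810.3, 354 and 379 CPM against 338, 332 and 339 (log2 fold change -0.61, SE 0.33, adjusted p = 0.574 by edgeR). Eif4a3, a helicase of the exon junction complex rather than of the cap complex, stood at 239.8, 107 and 110.4 CPM against 93.8, 96.6 and 103 (log2 fold change -0.64, SE 0.33, adjusted p = 0.574 by edgeR). In each, replicate 1 was more than 1 log2 unit above the median of the other 5 libraries. Without it, the fold changes were -0.10 for Eif3b, -0.12 for Eif4h and -0.15 for Eif4a3. Vars, for valine, was at 192, 93.6 and 109.6 CPM against 98.0, 95.1 and 148, and its fold change went from -0.21 to 0.16 without that replicate.

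These genes differ in what surrounds them. Eif3b lies on chromosome 5 at 140419328 to 140443360 (GRCm38), and all 10 listed genes within 0.5 Mb of it were more than 0.5 log2 units higher in wild-type replicate 1 than the median of the other libraries, by a median of 1.42. Between Eif3b and the end of the chromosome, 67 of 74 genes (90.5%) did so. Eif4a3 lies on chromosome 11 at 119288363 to 119300089, and its 10 neighbours within 0.5 Mb likewise all did so, by a median of 1.17. Over all genes the share was 11.6%. Around Eif4h, on chromosome 5 at 134619721 to 134639490, it was 8 of 15 within 0.5 Mb, and 120 of 157 (76.4%) from there to the end of the chromosome. Within 2 Mb of Eif4h it was 15 of 37, with a median of 0.27. The rise was thus not continuous, and some genes between Eif4h and Eif3b stayed near 0, such as Baz1b (0.06) and Mdh2 (-0.01).

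Vars and Mars2 had no such neighbourhood, with 4 of 34 genes within 0.5 Mb of Vars (chromosome 17, 35000987 to 35016322) and 1 of 7 near Mars2 (chromosome 1, 55237177 to 55248470) more than 0.5 higher in that library. Hspa1b, a heat-shock gene close to Vars, was also highest in wild-type replicate 1 and next highest in knockout replicate 3, at 153, 74.9 and 62.3 CPM in wild type and 59.1, 52.9 and 126 in the knockout-labelled libraries. Over all 96 genes, the median of neighbours within 2 Mb was more than 0.5 higher in wild-type replicate 1 for 2, Eif3b and Eif4a3, and more than 0.5 lower for 1, Rars, with 5 neighbours. In each of the other 5 libraries it was so for 0. DNA copy number was not measured, and the part of position in these levels was not tested.

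**Figure D4:**
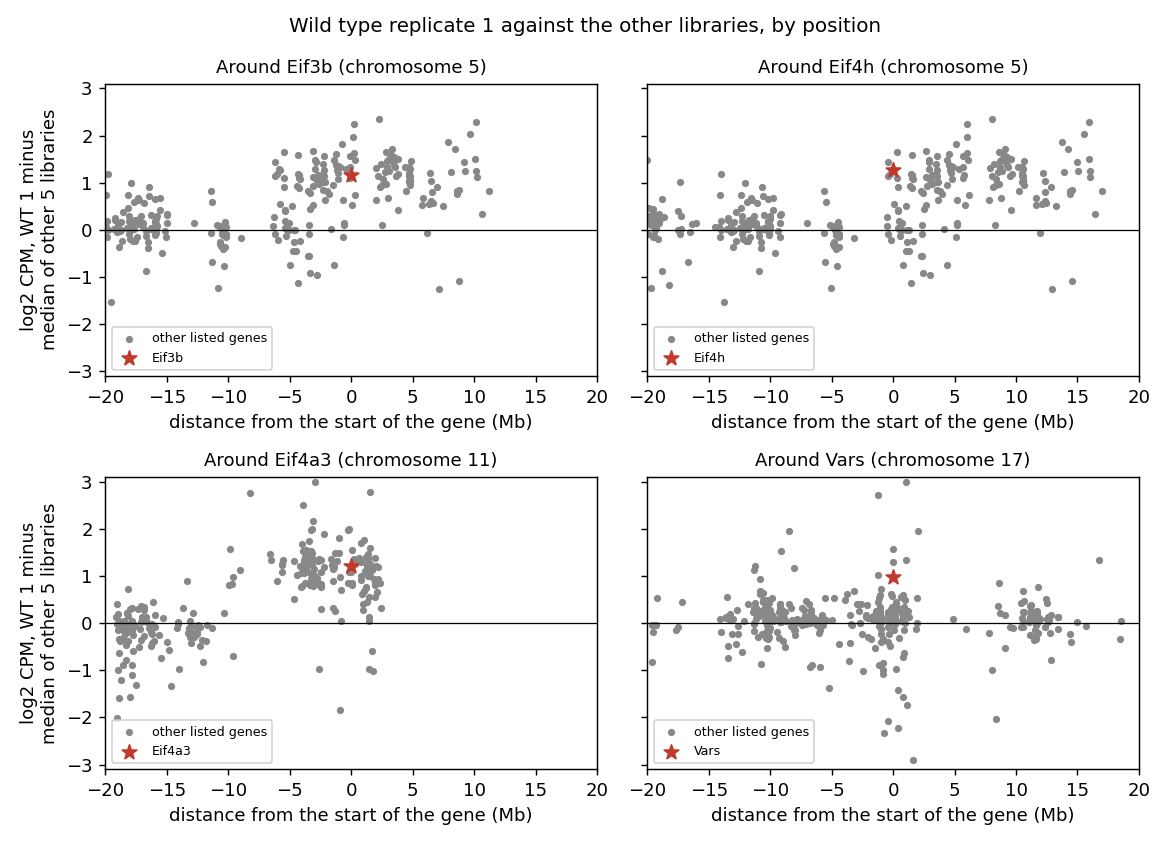
Log2 CPM in wild-type replicate 1 minus the median of the other 5 libraries (vertical axis, limited to ±3), for listed genes within 20 Mb of 4 genes, by distance from the gene's start in Mb. Most points near and beyond Eif3b and Eif4a3 sit about 1 log2 unit above 0. On chromosome 5, raised points become frequent near Eif4h, with others near 0 among them. Most points around Vars stay near 0.

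The list of 43 other genes of translation control (eIF2 kinases, mTOR complex, 4E kinases, poly(A)-binding proteins, release and mitochondrial factors) gave 0 calls by edgeR at an adjusted p under 0.05, and 0 at an unadjusted p under 0.05, against 7.88% of all genes. Of the 43, 27 fold changes were above 0 and 16 below, with a median of 0.03, and 4 (9.3%) did not overlap, against 17.4% of all genes. Ppp1r15b, a regulator of eIF2 dephosphorylation, stood at 58.0, 79.4 and 81.5 CPM against 83.1, 81.6 and 83.4 (log2 fold change 0.18, and 0.04 without wild-type replicate 1), and Dtd1, which clears mischarged tRNAs, at 9.60 to 11.6 CPM against 12.1 to 16.0. Mtor was at 116, 108 and 108 CPM against 104, 103 and 101 (log2 fold change -0.11, adjusted p = 0.574 by edgeR).

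Rptor, the mTORC1 scaffold, lies on the same stretch of chromosome 11 as Eif4a3, at 119602905 to 119899576. It was at 227, 103 and 117 CPM in wild type and 95.3, 92.7 and 86.3 in the knockout-labelled libraries, with a log2 fold change of -0.70, and of -0.27 without wild-type replicate 1. Eif2ak1 and Aimp2, on the stretch of chromosome 5 with Eif3b, had fold changes of -0.65 and -0.64, which were 0.02 and -0.08 without that library.

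Markers of the cells in the samples were also compared between the labels, and edgeR called 0 genes of any list at an adjusted p under 0.05. Counts of markers without overlap stand beside a share of 17.4% over all genes. All 10 epithelial markers had negative fold changes, with 5 of the 10 not overlapping and a summed level of 6439 to 7292 CPM in wild type against 4073 to 5071 in the knockout-labelled libraries. Among these 10, Cldn3 and Cldn4 lie between Eif4h and Eif3b on chromosome 5. In wild-type replicate 1 they were 0.91 and 1.65 log2 units above the median of the other libraries. All 9 macrophage markers had positive fold changes, with 1 not overlapping and sums of 395 to 715 against 728 to 1117 CPM. Sums for the 6 listed of 8 fibroblast markers were 1450 to 3797 against 3221 to 5751 CPM, with 6 positive fold changes and 0 genes without overlap. For the 8 pericyte and smooth muscle markers they were 336 to 1123 against 917 to 2021, with 7 positive and 5 not overlapping. The sums of both lists overlapped between the labels. Ptprc, the 1 listed of 8 lymphocyte markers, was at 4.94 to 7.48 against 10.3 to 11.3 CPM, and Fabp4, the 1 listed of 5 adipocyte markers, at 2.45 to 4.27 against 26.6 to 78.1. The 5 proliferation genes summed to 104 to 187 against 151 to 189 CPM, and the 6 listed of 8 interferon-response genes to 103 to 146 against 121 to 307, with positive fold changes for each gene of both lists and overlapping groups. Of 6 endothelial markers 0 were in the table, and no listed marker was at 0. In bulk samples fewer cells of a type and less RNA per cell cannot be told apart, and the part of cell makeup in the levels above was not tested.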

How the data were processed

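Libraries were prepared with a NEBNext Ultra RNA kit and sequenced as paired ends, per the labels' protocols. The authors deposited 1 table of raw gene counts for all 6 libraries; CASAVA 1.8, HISAT2, featureCounts and the GRCm38 (mm10) build are named in the submitters' processing notes, whereas no source used here names the annotation release or strand setting. Every listed gene reached at least 133 counts in its highest library, so the table holds no gene with few counts throughout.

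Counts were tested with edgeR 4.0.16 (quasi-likelihood, TMM scaling, robust, genotype only, Benjamini-Hochberg adjustment over 10995 genes, threshold 0.05) in R 4.3.3. The SE is the absolute log2 fold change divided by the square root of F. DESeq2 1.42.0 and limma-voom (limma 3.58.1) were alternatives, with other scalings, filters, a replicate block and each library left out. Exon lengths, positions and shared 31-base words came from GENCODE M21 on GRCm38, which matched 96 of 96 genes; 40 of them share over 5% of their words.

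The members and gene lists were chosen with earlier results of these data known. Named genes are those past the threshold in edgeR or DESeq2, the 3 smallest p-values per role, a fixed set of 14, the highest and lowest level per length per role, and genes whose groups do not overlap; the other genes given with values were chosen after those values were seen. A gene that the rule names is not reported here. No label ties each library to its own animal, so the p-values reflect how far libraries of a label differ, and part of that may be technical.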

Additional observations from a re-analysis of the deposited data

How the results depend on the processing

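No member was called under any alternative run. Over all genes DESeq2 called 64 higher and 39 lower, where edgeR called 0 and 0. Scaling to library size alone put the initiation median at 0.0034, Eif4a1 at 0.011 and Nars at 0.0037, each on the other side of 0. Leaving out 1 library at a time gave 0 to 1 calls higher and 0 to 1 lower over all genes, with 1 each without wild-type replicate 2. The median over all members then ran from -0.028 to 0.0076 and that of initiation from -0.030 to 0.0080, of elongation from -0.11 to 0.024, of cytosolic synthetases from -0.029 to 0.058 and of mitochondrial synthetases from -0.068 to 0.0035, so each crossed 0. Between 12 and 22 members did not overlap upward and 8 to 20 downward, since smaller groups overlap less. The share over all genes was not counted for these runs, so these counts have no background and show no excess or lack. Gene by gene, ranges over these runs were worked out for only some of the members. Among those, the log2 fold changes that crossed 0 ranged from -0.16 to 0.13 for Eef2k and -0.063 to 0.070 for Eif4a1. They ranged from -0.22 to 0.029 for Eif4ebp1, -0.055 to 0.21 for Eif5a2 and -0.0073 to 0.079 for Eprs. For Gars the range was -0.069 to 0.17, for Iars2 -0.019 to 0.079 and for Nars -0.11 to 0.060. For Vars it was -0.44 to 0.16 and for Wars -0.11 to 0.073. This list is not complete. Without wild-type replicate 1, Yars went from -0.070 to 0.095, Eef1b2 from -0.094 to 0.046 and Sars from -0.026 to 0.026. Other members outside the list also changed sign in that run. The cause was not tested.

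Deviations of same-numbered libraries showed no common direction, with correlations of -0.12, 0.35 and -0.25 in order of replicate number. A pair with different numbers also reached 0.35. With only 3 libraries per label, these correlations cannot decide whether the numbers mark a pairing. A replicate block gave 0 calls in either direction over all genes and 862 genes at an unadjusted p under 0.05, against 866 without it, and a log2 fold change of -0.25 for Mars. Counting 3 against 3 libraries limits what could be called: the SE of log2 fold changes was 0.06 to 0.44 among the members.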
